A study of Mus musculus with 8 samples.

Results

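The genes described here are 38 enzymes and transporters that build the sulfated sugar chains of proteoglycans, the glycosaminoglycans chondroitin sulfate, dermatan sulfate and heparan sulfate. They were taken by gene name from a list of such enzymes and transporters, and all 38 were found among the 20681 genes of the deposited table. RNA was measured by poly-A sequencing in 8 mouse knee joint samples, 4 libraries labelled control and 4 labelled knockout. The series design gives all 8 samples as from mice that are Acan-Cre;Loxl2 fl/fl, that is, with both Loxl2 alleles flanked by loxP sites and a Cre recombinase under the aggrecan gene, which is active in chondrocytes, so that any deletion is limited to Cre-expressing cells and a joint sample keeps the transcript of all others. The controls are called vehicle-treated, with library names beginning Vehicle_DMM_LOXL2wt, and the others KO_DMM_LOXL2ko; what the latter received in place of vehicle, the age and the time after surgery are not given in the sources used here. DMM, which all 8 names carry, is the usual short form of medial meniscus destabilisation, an operation that injures the knee, so there is no uninjured group.

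Each chain is built on a serine of a core protein in the Golgi. A short linkage sugar sequence that begins with xylose is laid down first, the chain is then extended by alternating sugars, of the chondroitin or the heparan type, and sulfotransferases and epimerases modify it with sulfate drawn from the donor PAPS. In cartilage the chondroitin sulfate chains of aggrecan hold water and give the tissue its resistance to compression, and heparan sulfate on cell surfaces and in matrix binds growth factors.

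Values are normalised read counts, the reads of a gene divided by the library's size factor. Differences are those of log2(value + 1), libraries labelled knockout minus control, fitted with limma over the 14949 genes that reached 10 in 4 or more libraries, and a gene is called at a Benjamini-Hochberg adjusted p under 0.05. Each group has n = 4, and errors after ± are SD unless marked SE. Gene coordinates are those of GENCODE on build GRCm38 (mm10). The exact permutation test is two-sided over the 70 assignments of libraries to groups and cannot give less than 0.0286. Nothing in the labels says that the samples came from separate cages or days, so p-values measure the spread between these samples only. The libraries held 13991000 to 17411617 reads assigned to genes. Loxl2 (chromosome 14, 69609068 to 69695834), the targeted gene, had 282, 349, 1135 and 311 normalised reads in control replicates 1 to 4 and 893, 1468, 960.3 and 1518 in the libraries labelled knockout, which differed by 1.44 ± 0.40 (SE) in log2 units (adjusted p by limma 0.0294, p by exact permutation 0.0857), against the direction of the label. That limma call was lost when control replicates 1, 2 or 4 (adjusted p 0.0663, 0.0795, 0.0766) or knockout replicates 2 or 4 (0.0744, 0.0847) were omitted, while without control replicate 3 the difference was 1.91. The groups are therefore called by their labels.

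The joints also differed in the marker genes of their tissues. The summed level of 19 skeletal muscle markers was 2664000 to 2902000 in the control libraries and 1341000 to 1841000 in those labelled knockout, with 9 called lower. The 15 fibroblast markers summed to 48900 to 144900 and 187100 to 293900, with 9 called higher, the 10 macrophage markers to 2895 to 6765 and 10020 to 14350, with 8 called higher, and the 8 osteoclast markers to 1868 to 14060 and 10270 to 39330, with 7 called higher. A sum follows its most abundant genes. The mean log2(value + 1) of the fibroblast markers overlapped, at 11.49 in control replicate 3 and 11.34 in knockout replicate 3. The chondrocyte markers Col2a1, Acan and Comp were present in every library, Matn3 had no reads in control replicate 3, and Matn1 was not analysed here. The sum of the 13 chondrocyte markers was 3831 to 11810 and 9749 to 13400, with only Hapln1 called. Much of this sum was Comp, with 2565 to 6974 in the controls and 5810 to 11075 in the others. The mean log2(value + 1) of the 13 overlapped, at 7.52, 6.94, 5.58 and 5.78 in the controls and 7.05, 6.42, 7.78 and 7.03 in the others. Of 10 osteoblast and osteocyte markers 4 were called higher (sums of 1136 to 7643 and 6350 to 13010). These calls are by limma. With edgeR and DESeq2, 14 and 16 muscle markers were called, 8 and 9 fibroblast markers and 8 and 8 macrophage markers. For osteoclasts 4 and 4 were called, for osteoblasts and osteocytes 2 and 2, and for chondrocytes 1 and 2. The 7 erythroid markers summed to 16760 to 98970 in the controls and 4040 to 42560 in the libraries labelled knockout, with a median log2 difference of -1.95 and all 7 differences below 0. None of them was called by limma, edgeR or DESeq2, while all 7 had an unadjusted limma p under 0.05. The 8 neutrophil markers summed to 1389 to 5671 and 1113 to 2707, with a median of -0.64 and all 8 below 0; none was called by any of these tools, and 1 had an unadjusted limma p under 0.05. Every marker of these 8 lists that was in the table had reads in some library. In a joint sample, fewer cells of a type and less RNA per cell cannot be told apart, and the part of these tissue differences in the results below was not tested.

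**Figure D1:**
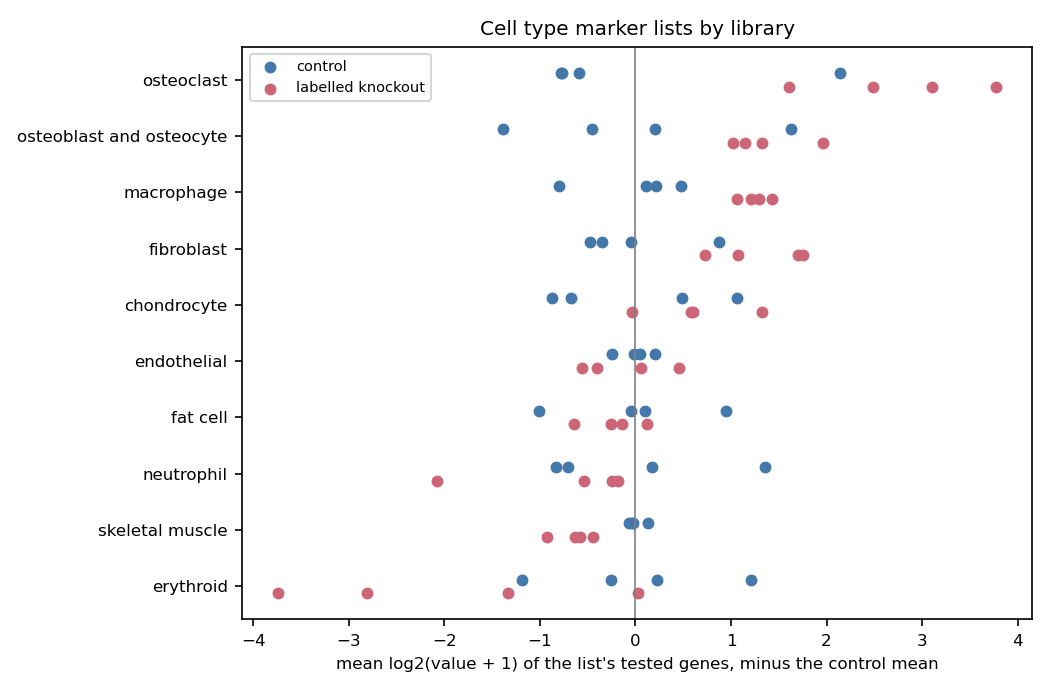
Mean log2(value + 1) of the tested genes of each cell type marker list (x axis), given relative to the control mean, for the 4 control libraries and the 4 libraries labelled knockout, 1 point per library. The muscle scores of the groups are separate, and so are those of macrophages, while the fibroblast, chondrocyte, osteoclast and other lists overlap.

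Of the 38 genes, 17 were called (44.7%), against 23.2% of all genes tested. The list was chosen with earlier results of these data known, so these shares only describe it and test nothing. The 14 called higher were 36.8% of the members (11.6% of all genes), and the 3 called lower were 7.89% (also 11.6% of all genes). All 38 had passed the filter on low values, Chsy3 only through the libraries labelled knockout, since among the controls replicate 3 alone reached 10. The median log2 difference was 0.42 for the members and 0.00 for all genes tested, and 30 of the 38 differences were above 0. The values of the groups did not overlap for 15 members that were higher and 3 that were lower in the libraries labelled knockout; over all genes tested these shares are 11.7% and 13.4%. The genes called higher lay mostly on the chondroitin and dermatan side, where 9 of 15 members were called, all higher, with a median difference of 0.78. On the heparan side 5 of 12 were called, 2 higher and 3 lower, with a median of 0.03. The difference between the sides was not tested.

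These counts depended on how the libraries were compared. With the mean level of the muscle markers as a covariate, a score with 84.9% of its variance between the groups, no member was called with limma (1 at an unadjusted p under 0.05), as was no gene of the whole table (559 at an unadjusted p under 0.05), so the group and the muscle level cannot be told apart. Each library was also scaled on all genes except the 50 highest and the listed muscle, erythroid and neutrophil markers. Other muscle and blood genes stayed in this scaling, which is called below the scaling without muscle and blood markers. The median difference of all genes then moved from 0.00 to 0.15. The calls over all genes moved from 1732 higher and 1729 lower to 2717 and 785, and the calls of members to 19 higher and 1 lower. With quantile normalisation 6 members were called higher and 1 lower, while the calls over all genes also fell, to 1295 higher and 1263 lower.

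**Figure D2:**
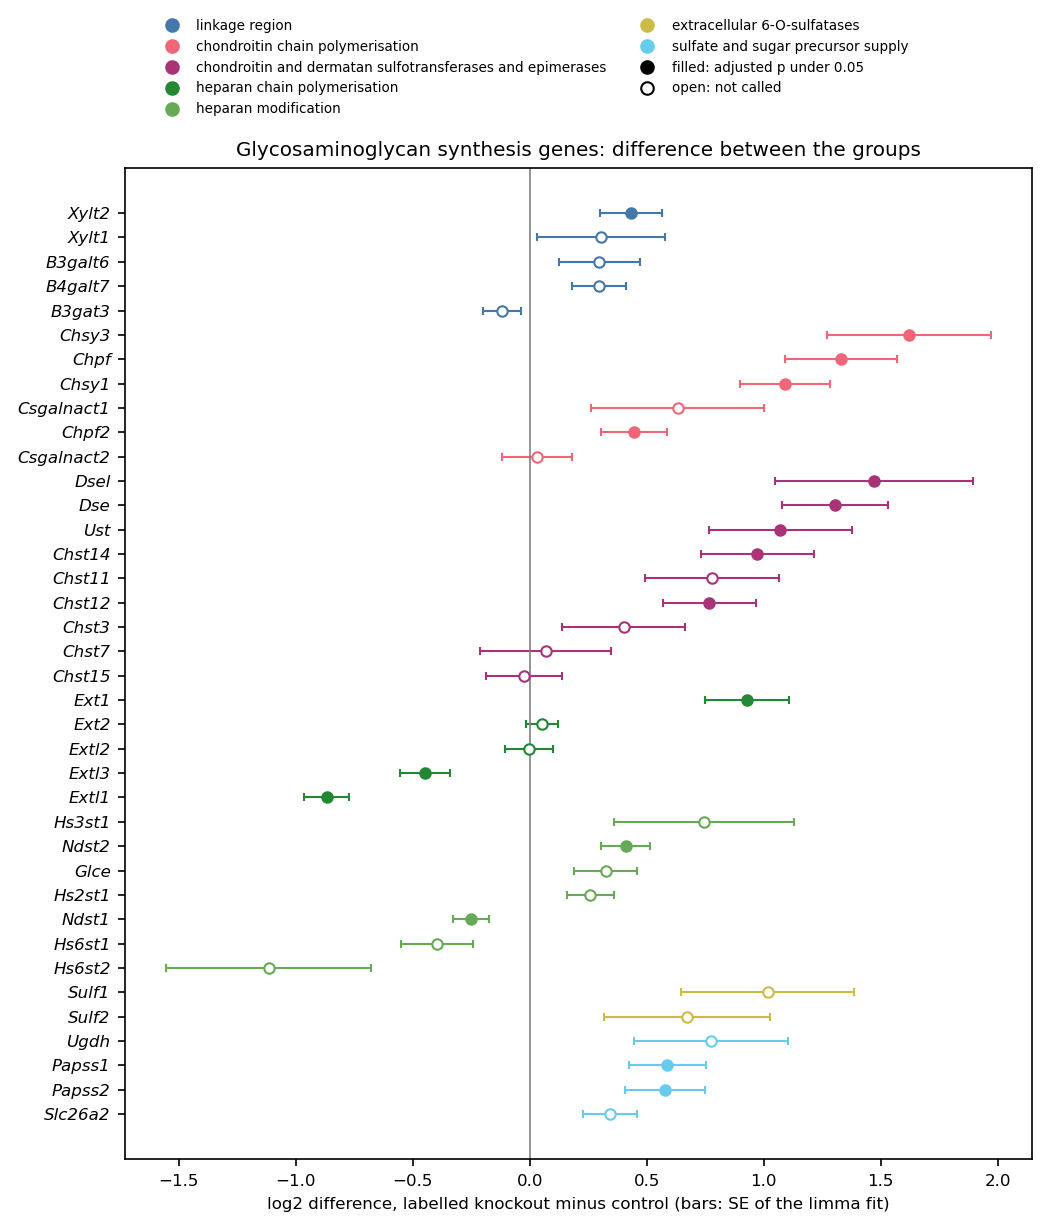
Log2 difference of each of the 38 genes (x axis, labelled knockout minus control), with the standard error of the limma fit as bars, grouped by role and ordered within it. Filled points mark the 17 called genes, which run from Extl1 at -0.87 to Chsy3 at 1.62.

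**Figure D3:**
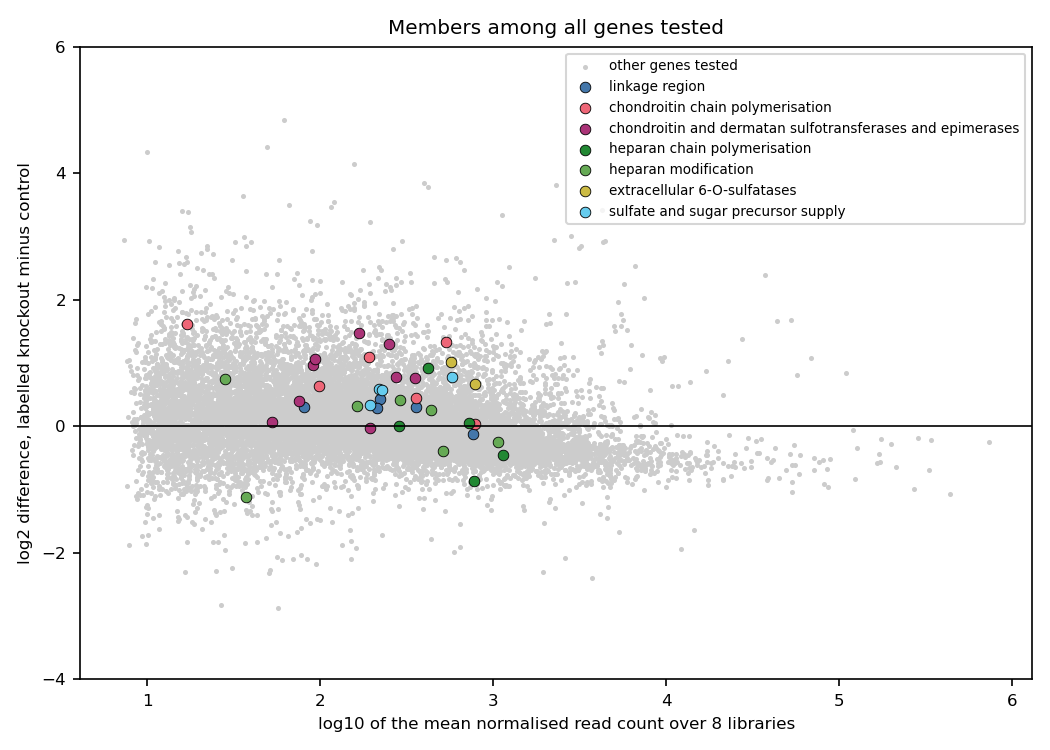
Log2 difference (y axis, labelled knockout minus control) against the log10 mean normalised read count over 8 libraries (x axis) for all 14949 genes tested, with the 38 members coloured by role. The chondroitin and dermatan genes lie mostly above 0, and the heparan genes lie on both sides of it.

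Promoter sequence is shown for 4 called genes that were higher in the libraries labelled knockout and do different steps: chain extension (Chsy1), heparan N-sulfation (Ndst2), sulfate donor synthesis (Papss1) and uronic acid sulfation (Ust). Among the called higher genes that have a promoter entry, they are the 4 of smallest p whose 250 bases before the RefSeq start hold no annotated exon. Ext1 and Chsy3, which had smaller p than Ndst2, have no entry and were not examined. For Chsy1 the RefSeq start lies 23 bases before the start of the gene in GENCODE, and for the other 3 the starts are the same. Each is given 5′ to 3′ on the gene's strand from RefSeq, build GRCm38.p6. Capitals mark the GC box GGGCGG on either strand, the motif bound by Sp1-type factors. The windows are chr7:66109242-66109491 on the plus strand for Chsy1, chr14:20734563-20734812 on the minus strand for Ndst2, chr3:131564518-131564767 on the plus strand for Papss1 and chr10:8518826-8519075 on the minus strand for Ust.
Chsy1: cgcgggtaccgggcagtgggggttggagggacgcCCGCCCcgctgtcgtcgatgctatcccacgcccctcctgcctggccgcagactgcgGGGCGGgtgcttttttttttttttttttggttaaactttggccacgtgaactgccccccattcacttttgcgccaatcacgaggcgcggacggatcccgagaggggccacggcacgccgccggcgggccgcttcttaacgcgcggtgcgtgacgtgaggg
Ndst2: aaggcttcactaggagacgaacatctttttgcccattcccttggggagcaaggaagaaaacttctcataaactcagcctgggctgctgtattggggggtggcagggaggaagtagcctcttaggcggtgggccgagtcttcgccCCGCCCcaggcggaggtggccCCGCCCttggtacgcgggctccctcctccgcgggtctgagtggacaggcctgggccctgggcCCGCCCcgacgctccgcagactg
Papss1: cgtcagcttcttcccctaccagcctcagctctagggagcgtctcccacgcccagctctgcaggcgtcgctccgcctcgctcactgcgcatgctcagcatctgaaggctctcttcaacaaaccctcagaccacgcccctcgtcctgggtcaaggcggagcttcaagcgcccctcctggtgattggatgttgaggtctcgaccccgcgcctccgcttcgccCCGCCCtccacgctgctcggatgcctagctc
Ust: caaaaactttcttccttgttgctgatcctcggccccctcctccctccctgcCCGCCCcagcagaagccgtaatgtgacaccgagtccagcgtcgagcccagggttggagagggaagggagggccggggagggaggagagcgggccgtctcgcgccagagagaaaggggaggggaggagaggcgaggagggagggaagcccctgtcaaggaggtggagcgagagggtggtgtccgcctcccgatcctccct
They hold 2, 3, 1 and 1 GC boxes in that order, in sequence of 65.6%, 64.8%, 65.2% and 66.4% G and C. A promoter was found for 30 of the 38 genes, and 22 of these (73.3%) held GGGCGG in the 250 bases, as did 11 of the 12 with a promoter that were called higher. Of all 27025 gene promoters in the table, which are not limited to genes with reads here, 32.9% did. The motif ACAAAG, a core bound by SOX factors, was in 1 of the 30 (3.33%, 16.5% of all promoters), and the AP-1 motif TGANTCA in 1 (3.33%, 6.87% of all). Both strands were read, neighbouring matches of different motifs can share an end base, and the counts describe these letters in these windows only.

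The linkage region is begun by the xylosyltransferases Xylt1 and Xylt2 and completed by 2 galactosyltransferases and a glucuronosyltransferase, B4galt7, B3galt6 and B3gat3. Only Xylt2 was called among these 5. It had 174, 205, 201 and 171 normalised reads in the 4 controls and 216, 243, 258 and 302 in the libraries labelled knockout, which differed by 0.43 ± 0.13 (SE) in log2 units (adjusted p by limma 0.0405, p by exact permutation 0.0286). Every library of the latter lay above every control. Its paralogue Xylt1 had 318 ± 98.9 and 395 ± 144 normalised reads with overlapping groups (log2 difference 0.30, limma adjusted p = 0.444). B4galt7 had 191 ± 11.05 and 236 ± 24.3 and separate groups without a call (log2 difference 0.30, limma adjusted p = 0.0876), and B3galt6 had 72.2 ± 9.42 and 88.9 ± 11.9. B3gat3, which adds the last sugar of the linkage, was the most abundant of the 5 per kilobase, with 798, 771, 735 and 873 in the controls and 720.1, 712, 776 and 714 in the libraries labelled knockout. The ranges of B3gat3 overlapped, and its difference was -0.12 (limma adjusted p = 0.319). The call of Xylt2 was lost without control replicates 1, 2 or 4 (adjusted p 0.0854, 0.0608, 0.0976) and without knockout replicates 2, 3 or 4 (0.0702, 0.0643, 0.112).

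Chondroitin chains are started by Csgalnact1 and Csgalnact2, which add the first N-acetylgalactosamine, and extended by the synthases Chsy1 and Chsy3 together with the polymerising factors Chpf and Chpf2. The 4 extending genes were called higher and the 2 starting genes were not called. Chsy1 (chromosome 7, 66109515 to 66173798) had 150.3, 96.9, 126 and 113 normalised reads in the controls. In the libraries labelled knockout it had 264, 271, 187 and 323, which differed by 1.09 ± 0.19 (SE) in log2 units (adjusted p by limma 0.00674, p by exact permutation 0.0286), a rise of 2.13-fold on the log2(value + 1) scale. The lowest of the latter, replicate 3, lay above the highest control. Chpf (chromosome 1, 75474569 to 75479307), which lacks strong activity of its own and works in complex with the synthases, had 291, 267, 453 and 220.2 in the controls and 587, 878, 607 and 998 in the others, which differed by 1.33 ± 0.24 (SE) in log2 units (adjusted p by limma 0.00709, p by exact permutation 0.0286). Among the controls replicate 3 was highest, and it was still below each library labelled knockout. Chsy3 (chromosome 18, 59175401 to 59535999) was rare, with 6.49, 8.08, 11.2 and 5.48 in the controls and 27.9, 17.1, 25.01 and 34.3 in the libraries labelled knockout, which differed by 1.62 ± 0.35 (SE) in log2 units (adjusted p by limma 0.0124, p by exact permutation 0.0286). Per kilobase of merged exons Chsy3 had 1.08 normalised reads in the control group, against 29.1 for Chsy1, 79.9 for Chpf, 54.03 for Chpf2, 15.2 for Csgalnact1 and 142 for Csgalnact2. The calls of Chsy1, Chpf and Chsy3 stayed whichever of the 8 libraries was omitted.

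Chpf2 rose less, from 302 ± 39.8 to 413 ± 61.6 with overlapping groups, which differed by 0.45 ± 0.14 (SE) in log2 units (adjusted p by limma 0.0466, p by exact permutation 0.0571). Its call was lost without control replicates 2, 3 or 4 (adjusted p 0.122, 0.0570, 0.105) or knockout replicates 1, 2 or 4 (0.109, 0.107, 0.115). It overlaps Smarcd3 on the opposite strand, and since the use of strand in the counting is not given in the sources used here, the reads of the 2 genes were not necessarily kept apart. The same holds for Chsy1 with Gm26827, Ext2 with Alx4, Papss1 with Gm42881 and Sulf2 with Ncoa3. Csgalnact2, the more abundant initiating enzyme per kilobase, had 639, 757, 774 and 915 in the controls and 864, 883, 592 and 832 in the others. These ranges overlap almost fully (log2 difference 0.03, limma adjusted p = 0.894). Csgalnact1, the initiating enzyme known from cartilage, had 77.5 ± 34.2 and 121 ± 50.3 (log2 difference 0.63, limma adjusted p = 0.238). The within-library log2 ratio of Csgalnact1 to Csgalnact2 was -3.39 ± 0.56 and -2.79 ± 0.59, a difference of 0.60 (exact permutation p = 0.229).

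**Figure D4:**
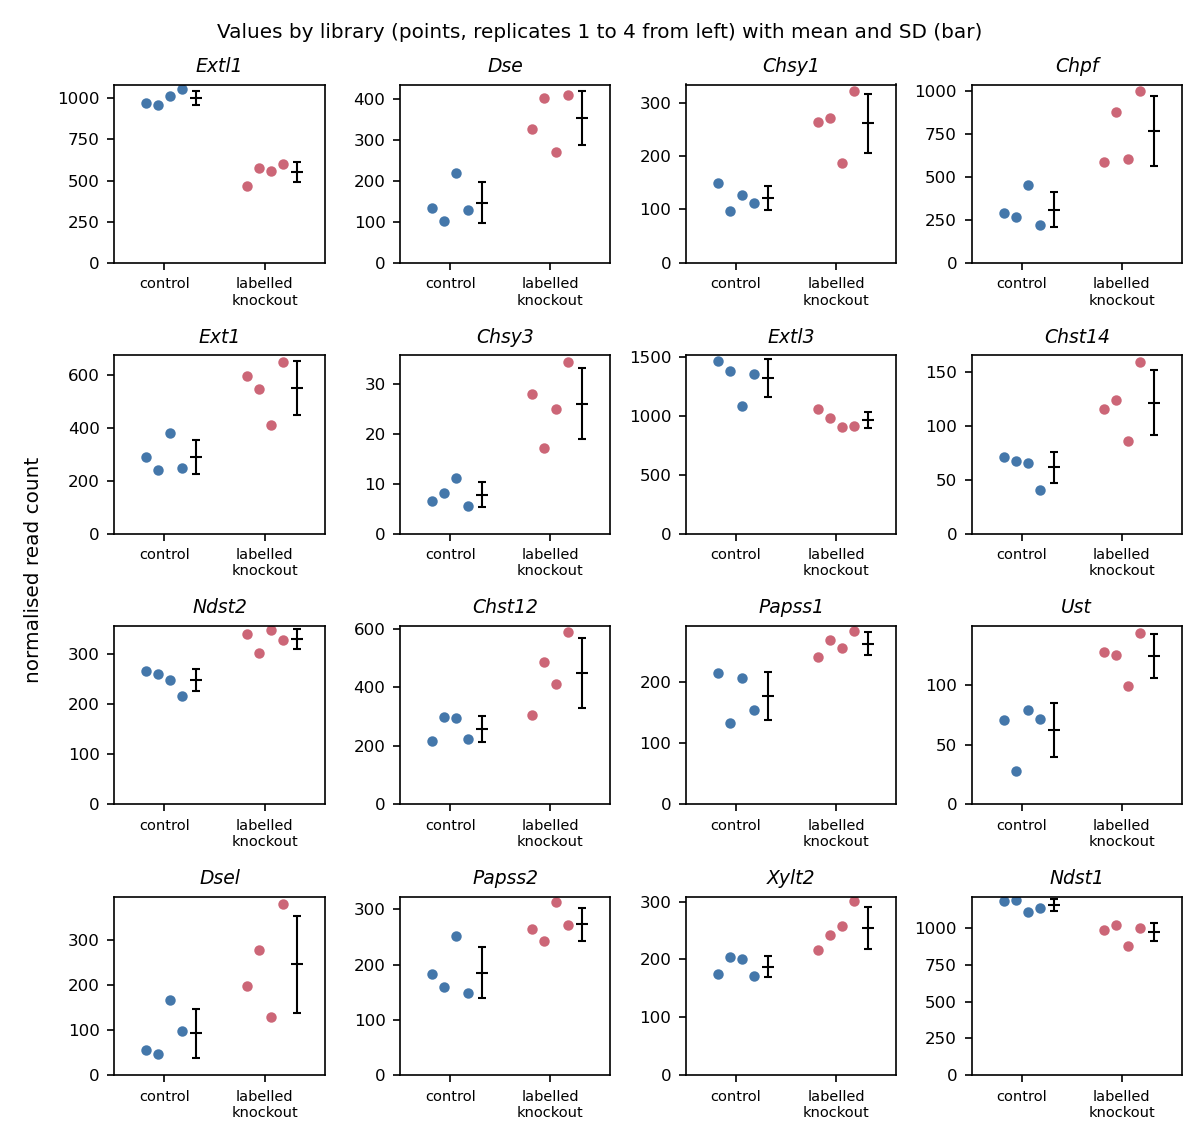
Normalised read counts (y axis, from 0) of the 16 called genes of smallest p, 1 point per library in replicate order, with the mean and SD of each group of 4 as a bar. Extl1, Extl3 and Ndst1 are lower in all 4 libraries labelled knockout than in any control, Dsel and Papss2 overlap, and the other 11 are higher without overlap.

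Dermatan sulfate is chondroitin in which the epimerases Dse and Dsel turn glucuronic into iduronic acid, which is then followed by the dermatan 4-O-sulfotransferase Chst14 and the uronyl 2-O-sulfotransferase Ust. All 4 were called higher. Dse (chromosome 10, 34151393 to 34207715) had 134, 103, 219 and 129 normalised reads in the 4 controls and 328, 404, 272 and 411 in the libraries labelled knockout, which differed by 1.30 ± 0.23 (SE) in log2 units (adjusted p by limma 0.00646, p by exact permutation 0.0286). The groups were separate, with control replicate 3 again the highest control. The mean log2(value + 1) of the fibroblast markers was also highest among the controls in replicate 3, at 11.49, against 10.57, 10.27 and 10.14 in replicates 1, 2 and 4, and it was 11.69, 12.32, 11.34 and 12.37 in the libraries labelled knockout; its part in these differences was not tested. Dsel, its paralogue, had 56.2, 47.4, 167 and 97.5 in the controls and 197, 278, 128 and 378 in the others, which differed by 1.47 ± 0.42 (SE) in log2 units (adjusted p by limma 0.0331, p by exact permutation 0.0571). Here control replicate 3 lay above knockout replicate 3, so the groups overlapped. Chst14 had 71.4, 67.6, 65.4 and 40.5 in the controls and 116, 124, 85.9 and 159 in the others, which differed by 0.97 ± 0.24 (SE) in log2 units (adjusted p by limma 0.0199, p by exact permutation 0.0286). Ust had 70.3, 28.3, 78.5 and 71.2 in the controls and 128, 125, 98.96 and 143 in the others, which differed by 1.07 ± 0.31 (SE) in log2 units (adjusted p by limma 0.0324, p by exact permutation 0.0286). In both genes the groups were separate, and for Ust control replicate 2 was far below the other controls. The call of Dse stayed whichever of the 8 libraries was omitted. That of Chst14 was lost without knockout replicate 4 (adjusted p 0.0614), that of Ust without knockout replicates 1, 2 or 4 (0.0694, 0.0708, 0.0906), and that of Dsel without control replicates 1, 2 or 4 (0.0740, 0.0890, 0.0568) or knockout replicates 1, 2 or 4 (0.0580, 0.0815, 0.0960).

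Of the 5 sulfotransferases that act on N-acetylgalactosamine of chondroitin, only Chst12, a 4-O-sulfotransferase, was called. Its counts were 216, 298, 295 and 222 in the controls and 306, 484, 410.0 and 589.8 in the libraries labelled knockout, which differed by 0.77 ± 0.20 (SE) in log2 units (adjusted p by limma 0.0236, p by exact permutation 0.0286). Knockout replicate 1 lay only just above the highest control, and the call was lost without control replicates 1 or 4 (adjusted p 0.0533, 0.0610) or knockout replicates 2 or 4 (0.0608, 0.0645). Chst11, the main chondroitin 4-O-sulfotransferase of cartilage, had 326, 130.2, 242 and 140.2 in the controls and 297, 265, 372 and 429.6 in the others. Control replicate 1 stood above 2 libraries labelled knockout, and the log2 difference of 0.78 (SE 0.29) was not called (limma adjusted p = 0.0758); without control replicate 1 it was 1.02 and was called (adjusted p = 0.0237). The 6-O-sulfotransferases Chst3 and Chst7 had 64.7 ± 15.5 and 87.3 ± 29.9 and, in the same order of groups, 50.3 ± 6.07 and 55.2 ± 19.3, and neither was called (limma adjusted p = 0.288 and 0.883). Chst15, which adds a further sulfate to 4-O-sulfated units, had 198 ± 42.5 and 191 ± 9.65 (limma adjusted p = 0.927), and it overlaps Fgfr2 on the same strand. The within-library log2 ratio of Chst3 to Chst11, a measure of 6-O against 4-O sulfotransferase transcript, was -1.61 ± 0.30 in controls and -1.98 ± 0.36 in the others, -0.38 apart and not significant (exact permutation p = 0.171).

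**Figure D5:**
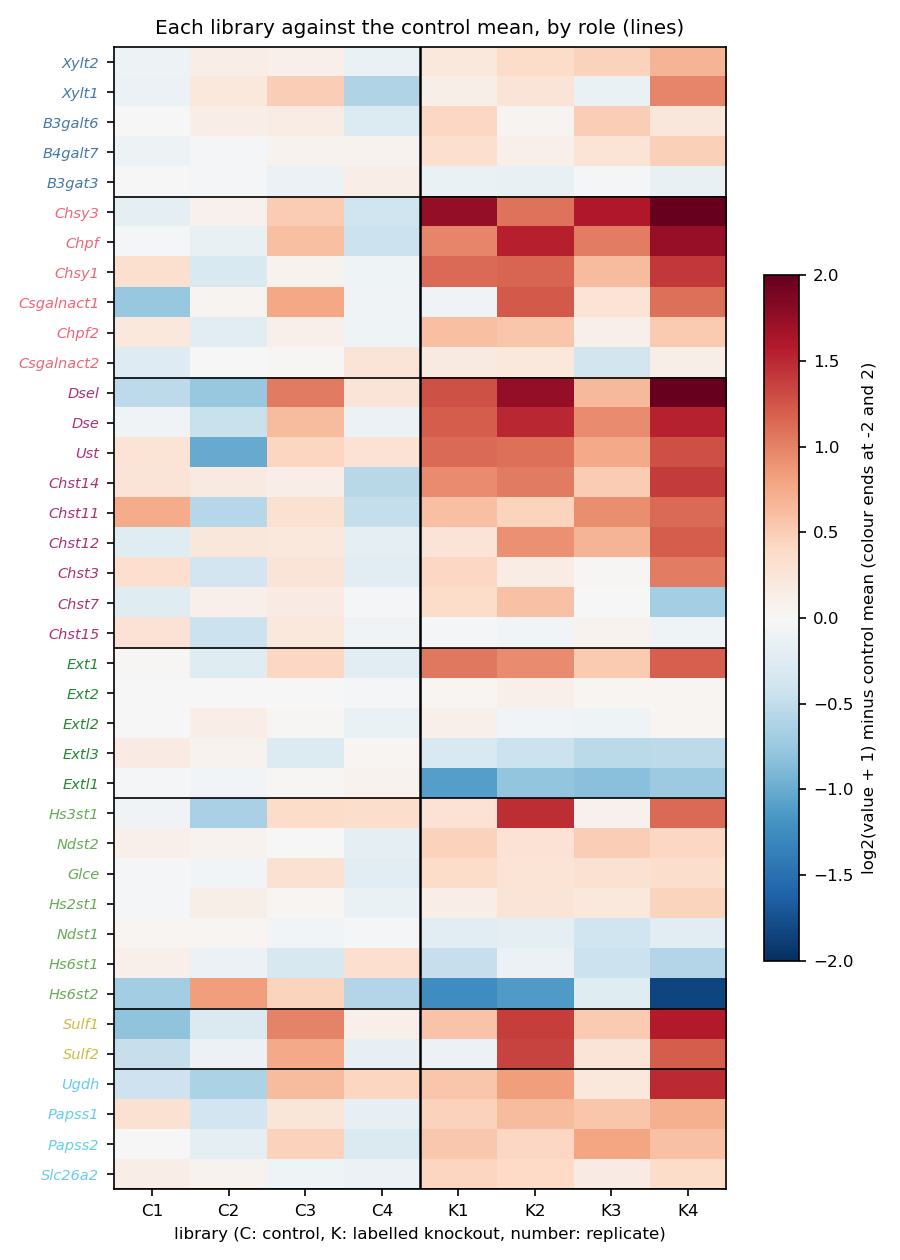
Log2(value + 1) of the 38 genes (rows, grouped by role with lines between) in each of the 8 libraries (columns), minus the gene's control mean, so that red is above and blue below that mean. Averaged over the 38 genes, control replicate 3 is the highest control column and knockout replicate 4 the highest of all. The rows that are below the control mean in all 4 libraries labelled knockout are B3gat3, Extl1, Extl3, Ndst1, Hs6st1 and Hs6st2.

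Heparan sulfate chains are extended by the complex of Ext1 and Ext2, after a first N-acetylglucosamine added by Extl3, and Extl1 and Extl2 are related transferases. Of these 5 genes, 1 was called higher and 2 lower. Extl1 (chromosome 4, 134356372 to 134383850) had the smallest p of all members. It had 974, 961, 1017 and 1055 normalised reads in the controls and 466, 578, 558 and 602 in the libraries labelled knockout, which differed by -0.87 ± 0.10 (SE) in log2 units (adjusted p by limma 0.00397, p by exact permutation 0.0286), so the level fell to 0.548 of the control level. All 4 libraries labelled knockout lay far below the lowest control. Extl3 (chromosome 14, 65052060 to 65149855) had 1460.1, 1378, 1082 and 1353 in the controls and 1055, 978, 903 and 915 in the others, which differed by -0.45 ± 0.11 (SE) in log2 units (adjusted p by limma 0.0168, p by exact permutation 0.0286). The groups were separate by a narrow gap, between control replicate 3 and knockout replicate 1. Ext1 (chromosome 15, 53064038 to 53346159) went the other way, with 289, 241, 379 and 246 in the controls and 593, 546, 410.0 and 649.6 in the others, which differed by 0.93 ± 0.18 (SE) in log2 units (adjusted p by limma 0.00882, p by exact permutation 0.0286). Its partner in the polymerase, Ext2, had 713, 708, 712 and 699.9 in the controls and 725, 759, 729 and 727 in the others. These groups were also separate, but the difference was only 0.05 and was not called (limma adjusted p = 0.605). Extl2 had 287 ± 22.7 and 286 ± 17.9 (limma adjusted p = 0.992). For comparison, the median log2 difference of the 19 muscle markers was -0.68.

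The calls of Extl1 and Ext1 stayed whichever of the 8 libraries was omitted. That of Extl3 was lost without knockout replicate 4 (adjusted p 0.0508). Under the scaling without muscle and blood markers, Extl3 had a limma adjusted p of 0.0656 at a difference of -0.30. Under that scaling Extl1 was the 1 member still called lower. Per kilobase of merged exons the control levels were 231 for Extl1, 217 for Extl3, 96.6 for Ext2, 83.2 for Extl2 and 35.8 for Ext1. In the group labelled knockout they were 127, 159, 100.3, 83.1 and 68.1, so that Ext1 remained the lowest of the 5 per length in both. The within-library log2 ratio of Chsy1 to Ext1, the called polymerases of the 2 chain types, was -1.24 ± 0.28 and -1.08 ± 0.08, a difference of 0.16 (exact permutation p = 0.371).

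Heparan chains are modified first by the N-deacetylase and N-sulfotransferases Ndst1 and Ndst2, then by the epimerase Glce and the O-sulfotransferases Hs2st1, Hs6st1, Hs6st2 and Hs3st1. The 2 Ndst genes were called in opposite directions. Ndst1 had 1189.7, 1196, 1113 and 1141 normalised reads in the controls and 992, 1023, 882 and 1003 in the libraries labelled knockout, which differed by -0.25 ± 0.08 (SE) in log2 units (adjusted p by limma 0.0415, p by exact permutation 0.0286). Ndst2 (chromosome 14, 20723730 to 20734562) had 266, 260.4, 249 and 217 in the controls and 340.1, 302, 348 and 328 in the others, which differed by 0.41 ± 0.10 (SE) in log2 units (adjusted p by limma 0.0216, p by exact permutation 0.0286). For both the groups did not overlap. Their ratio does not depend on the scaling of the libraries. The log2 ratio of Ndst1 to Ndst2 was 2.16, 2.20, 2.16 and 2.39 in the controls and 1.54, 1.76, 1.34 and 1.61 in the libraries labelled knockout, a difference of -0.66. The groups were separate (exact permutation p = 0.0286), but over the 10 ratios examined the adjusted p was 0.286. It was the only 1 of the 10 with separate groups, and the difference lay between -0.73 and -0.59 when each library was left out. Singly, the call of Ndst1 was the only 1 of the 17 that was lost whichever of the 8 libraries was omitted (adjusted p from 0.0510 to 0.105). It was also lost with edgeR (edgeR adjusted p = 0.0513) and with the scaling without muscle and blood markers (limma adjusted p = 0.367, difference -0.10). Ndst1 also overlaps Rps14, a ribosomal protein gene, on the opposite strand. The call of Ndst2 was lost without control replicate 4 (adjusted p 0.0555) or knockout replicates 1 or 4 (0.0538, 0.0565).

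None of the other 5 modifying enzymes was called by limma or edgeR, while 4 had an unadjusted limma p under 0.05 (not Hs3st1) and DESeq2 called Hs6st2. Hs2st1, which sulfates the uronic acid, had 396 ± 29.2 and 475 ± 44.3 normalised reads with separate groups (log2 difference 0.26, limma adjusted p = 0.0858). Hs6st1, the more abundant 6-O-sulfotransferase of the pair per kilobase, had 618, 532, 461 and 729.5 in the controls and 419, 534, 427 and 383 in the libraries labelled knockout. The groups overlapped, with a difference of -0.40 (limma adjusted p = 0.0871), and it was called without control replicate 3 (adjusted p = 0.0373, difference -0.51). Hs6st2 had 51.5 ± 26.9 and 22.7 ± 11.5, a log2 shift of -1.11 (SE 0.44, limma adjusted p = 0.0908), and was called without knockout replicate 3 (adjusted p = 0.0414). Glce, the epimerase of heparan, had 146 ± 22.8 and 181 ± 5.29 (difference 0.32, limma adjusted p = 0.104) and was called without control replicate 3 (adjusted p = 0.0413). Hs3st1, which completes the antithrombin-binding sequence, had 20.2 ± 6.3 and 36.1 ± 16.6 (difference 0.74, limma adjusted p = 0.182).

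Sulf1 and Sulf2 are extracellular enzymes that remove 6-O-sulfate from finished heparan chains. Neither was called by limma or edgeR, though Sulf1 had an unadjusted limma p under 0.05 and was called by DESeq2, and both varied widely within the groups. Sulf2 had 405, 516, 949 and 497 normalised reads in the controls and 516, 1424, 668 and 1298 in the libraries labelled knockout (log2 difference 0.67, SE 0.35, limma adjusted p = 0.191). Control replicate 3 lay above knockout replicates 1 and 3. Sulf1 had 389.8 ± 216 and 749 ± 281, a log2 shift of 1.02 (SE 0.37, limma adjusted p = 0.0732). Without control replicate 3, in which Loxl2 and the fibroblast markers were also highest among the controls, the difference of Sulf1 was 1.34 and was called (adjusted p = 0.0159). The within-library log2 ratio of Sulf1 to Sulf2 was -0.68 ± 0.30 and -0.33 ± 0.27 (difference 0.34, exact permutation p = 0.171).

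The last 4 members supply the building blocks. Slc26a2 carries sulfate into the cell, Papss1 and Papss2 turn it into PAPS, and Ugdh makes UDP-glucuronic acid. Both PAPS synthases were called higher. Papss1 (chromosome 3, 131564768 to 131643671) had 214, 133, 206 and 154 normalised reads in the controls and 240.4, 269, 256 and 283 in the libraries labelled knockout, which differed by 0.59 ± 0.16 (SE) in log2 units (adjusted p by limma 0.0285, p by exact permutation 0.0286). Papss2 (chromosome 19, 32595790 to 32667187), the form known from cartilage, had 183, 159, 251 and 149 in the controls and 264, 242, 314 and 272 in the others, which differed by 0.58 ± 0.17 (SE) in log2 units (adjusted p by limma 0.0357, p by exact permutation 0.0571). The groups were separate for Papss1, and for Papss2 control replicate 3 lay above knockout replicate 2. Their within-library log2 ratio was 0.07 ± 0.25 and 0.06 ± 0.20 (difference -0.01, exact permutation p = 0.971). The call of Papss1 was lost without control replicates 2 or 4 (adjusted p 0.0675, 0.0731) or knockout replicates 2 or 4 (0.0654, 0.0809). That of Papss2 held only without control replicate 3 among the 8 such fits (adjusted p 0.0632, 0.0953, 0.0894 without control replicates 1, 2 and 4 and 0.0665, 0.0519, 0.0701, 0.0835 without knockout replicates 1 to 4).

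Slc26a2, whose loss causes chondrodysplasias, had 171 ± 14.5 and 217 ± 17.4 normalised reads and separate groups (difference 0.34, limma adjusted p = 0.0592), and was called without knockout replicate 3 (adjusted p = 0.0389). Ugdh had 304, 259, 625 and 542 in the controls and 594, 725, 469.8 and 1137 in the libraries labelled knockout. The groups overlapped, with the highest value in knockout replicate 4, and the difference of 0.78 (SE 0.33) was not called (limma adjusted p = 0.111). Of the 4 supply genes limma and edgeR each called 2 and DESeq2 called 3, so DESeq2 also called Slc26a2 or Ugdh.

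Across the members, 6 of the 17 calls stayed whichever of the 8 libraries was omitted: Chsy1, Chsy3, Chpf, Dse, Ext1 and Extl1. These were also the only 6 members called without knockout replicate 4, when 5 were higher and 1 lower. All genes called then were 816 higher and 924 lower. Of these 6 members, Chsy3 had passed the filter on low values through the libraries labelled knockout. Fewer than 10 were called higher in 4 further fits: 9 each on omitting control replicate 2 or knockout replicate 1, and 7 each on omitting control replicate 4 or knockout replicate 2. Over all genes these fits called 983, 1194, 1162 and 1131 higher in that order, against 1732 with all 8 libraries.

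Other genes of the pathway were examined from lists of 36 further synthesis genes, 15 lysosomal breakdown genes and 27 core proteins. These lists too were chosen with earlier results of these data known. Of the further synthesis genes 25 could be tested and 5 were called, all higher, with a median log2 difference of 0.27. Over all genes tested 23.2% were called in either direction, which is near 5 of 25, and 11.6% were called higher. The count of 5 is thus near the share of all genes, and that all 5 were higher was not tested. Chst2, a 6-O-sulfotransferase that acts on N-acetylglucosamine, went from 176 ± 47.7 to 398 ± 93.4 normalised reads, a log2 shift of 1.18 ± 0.23 SE (adjusted p by limma 0.00848). Pgm3, which works in the supply of UDP-N-acetylglucosamine, went from 41.9 ± 6.33 to 82.7 ± 11.01, a log2 shift of 0.97 ± 0.19 SE (adjusted p by limma 0.00928). Slc35d2, a Golgi nucleotide sugar transporter, and Tmem165, a Golgi protein needed for glycosylation, were higher by 0.85 ± 0.26 SE (adjusted p by limma 0.0392) and 0.41 ± 0.13 SE (adjusted p by limma 0.0429). The fifth was Pxylp1, the phosphatase that removes the phosphate from the linkage xylose, with 1.10 ± 0.34 SE (adjusted p by limma 0.0440); it falls outside the rule for names and was named after its value was seen.

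The lysosomal enzymes that take the chains apart were called higher in 10 of 15 genes (11.6% of all genes tested), with a median difference of 0.76, and all 15 differences were above 0. Hexa, which removes terminal hexosamines, went from 1417 ± 281 to 2478 ± 439, a log2 shift of 0.81 ± 0.16 SE (adjusted p by limma 0.00928). Naglu, which removes N-acetylglucosamine from heparan sulfate, differed by 1.09 ± 0.18 SE (adjusted p by limma 0.00561), and Gusb, the beta-glucuronidase, by 0.76 ± 0.15 SE (adjusted p by limma 0.00906). The macrophage markers, whose summed level is given above, were called higher in 8 of 10, and their part in this was not tested.

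Of the 27 core proteins 24 could be tested. The list is not limited to proteins that carry chondroitin, dermatan or heparan sulfate. Of these, 11 were called higher and 1 lower (each direction holds 11.6% of all genes tested), with a median difference of 0.94. Fmod, the keratan sulfate proteoglycan fibromodulin, went from 2707 ± 1090.0 to 7364 ± 993 normalised reads, a log2 shift of 1.51 ± 0.23 SE (adjusted p by limma 0.00462). Sdc1, a syndecan that carries heparan sulfate on cell surfaces, went from 295 ± 144 to 974 ± 179.7, a log2 shift of 1.83 ± 0.31 SE (adjusted p by limma 0.00605). The small leucine-rich proteoglycans Ogn and Lum were higher by 1.69 ± 0.34 SE (adjusted p by limma 0.01005) and 2.24 ± 0.48 SE (adjusted p by limma 0.0120). The groups of Lum overlapped, with 4979 in control replicate 3 and 4425 in knockout replicate 3. The 1 called lower was Gpc1, a glypican that bears heparan sulfate, which went from 5921 ± 244 to 4418 ± 456, a log2 shift of -0.43 ± 0.09 SE (adjusted p by limma 0.0124); it was named because it was the only one, after its value was seen.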

How the data were processed

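The deposited table holds 1 value per gene and library for 20681 genes and 8 libraries, a normalised signal that the authors deposited; from the values, it is a read count divided by a size factor per library. Per the series design text and the submitters' processing notes, reads were aligned to mm10 with HISAT2 and counted with featureCounts, and DESeq2 was used for normalisation and filtering; versions, annotation and strand are not given in the sources used here. Dividing a column by its smallest positive value gave integers for 100% of its entries (tolerance 0.01), and size factors recomputed from those reads equalled the inverse of that step. For 2 libraries, control replicate 2 and knockout replicate 1, this step is close to 1 and says little alone. Value columns without a sample numbered 0. Reads per library were 13991000 to 17411617. No pair of libraries within a group agreed within counting error (chi-square per degree of freedom of at least 25.8).

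Samples were grouped by their titles. The deposited values were tested with limma 3.58.1 on log2(value + 1), trend on, 1 term for the group, over genes of at least 10 in at least 4 libraries, with Benjamini-Hochberg adjustment over all of them. Exact permutation tests served for single values and for 10 within-library ratios. Alternatives were the pseudocounts 0.1 and 5, no filter and a filter of 50, 3 other scalings, a replicate block, edgeR 4.0.16, DESeq2 1.42.0, a muscle score covariate, and leaving out each library. On simulated data of 14715 genes, 195 of them changed, limma made 152 calls, 5 of them false, and found 66.3% of changes of log2 1 and 84.5% of log2 2.

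The members and gene lists were chosen with earlier results of these data known. Values per library are given for the called members, at most 16 by smallest p, and for the most abundant uncalled member of each role; from each further list at most 4 called genes of smallest p are named, except 1 that is not reported here. Coordinates and exon lengths are from GENCODE M21 (GRCm38, as mm10), where all 38 members were found, 11 of them overlapping a gene on the opposite strand.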

Additional observations from a re-analysis of the deposited data

Results flagged for a closer look

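Among 98 groups of 4 values examined (38 members, Loxl2 and 10 ratios, in each group), 5 held a library whose gap to its nearest neighbour, over the group's range, passed Dixon's critical value, about as many as chance flags at 1 in 20. B3gat3 stood at 776.5 normalised reads in knockout replicate 3, above the other libraries labelled knockout. Ust stood at 28.3 in control replicate 2, below the other controls. Ext2 stood at 759.5 in knockout replicate 2, above the rest of its group. Loxl2 stood at 1135 in control replicate 3, where the other controls held 282 to 349. The log2 ratio of Ndst1 to Ndst2 stood at 2.39 in control replicate 4, above the other controls.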

How the results depend on the processing

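The 17 calls kept their direction in every setting except the muscle covariate, under which Chpf2, Dsel and Ust reversed. Over 11 settings that left out no library, 349 of 415 member differences kept their direction and their side of the threshold, and 237 of 304 did with a library left out. The 14 members called higher became 6 with quantile normalisation, 7 with a replicate block and 0 with the covariate. Over all genes the 1732 called higher became 1295, 1117 and 0 in the same order. The 3 called lower became 1 with quantile normalisation, 1 with the scaling without muscle and blood markers, 2 with the block and 0 with the covariate. Over all genes the 1729 called lower became 1263, 785, 901 and 0 in the same order. Leaving out each library gave 5 to 15 higher and 1 to 3 lower, in smaller groups, and over all genes 816 to 1825 higher and 924 to 2007 lower. The cause of the other changes was not tested.

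With the covariate, the log2 differences that reversed were -0.76 for Xylt1, -0.24 for Csgalnact1, -0.35 for Csgalnact2, -0.082 for Chpf2, -1.03 for Chst3, -0.12 for Chst11, -0.63 for Dsel, -0.23 for Ust, -0.85 for Hs3st1, 1.24 for Hs6st2, -0.28 for Sulf1, -0.52 for Sulf2 and -1.03 for Ugdh. With the scaling without muscle and blood markers they were 0.030 for B3gat3, 0.12 for Chst15 and 0.15 for Extl2. With quantile normalisation the value was -0.17 for Chst7, and for Extl2 it was 0.0069 with edgeR and 0.0045 with DESeq2. Leaving out each library reversed only small differences: Csgalnact2 ran from -0.053 to 0.17, Chst7 from -0.10 to 0.32, Chst15 from -0.17 to 0.072, Extl2 from -0.049 to 0.044, the log2 ratio difference of Papss2 to Papss1 from -0.11 to 0.063 and that of Xylt1 to Xylt2 from -0.29 to 0.025.

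The labels do not say whether the replicate numbers pair the samples. Same-numbered deviations from the group means correlated at 0.213, -0.118, -0.233 and -0.063, and not every library correlated best with its own number. With 4 libraries in each group, these correlations cannot tell whether same-numbered samples shared a litter, batch or day. Genes of few reads such as Chsy3 (5 to 35 normalised reads a library) are limited by counting error.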
